A study of Mus musculus with 15 samples.

Results

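The 37 genes described here encode the complement system, the cascade of plasma proteins that tags and lyses microbes. They were chosen by gene name from a fixed list, and all 37 were found among the 21702 genes of the liver count table. Of these, 35 passed the filter on low counts and were tested among 12172 genes. The 2 left out were C7, which had 0 to 11 counts per library, and Cfd, which had 1 count in 1 library. Cfd encodes factor D, a serine protease made mainly in fat.

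The samples were whole livers of wild-type female mice, C57BL/6 by the labels and C57BL/6N by the study's methods, in 5 groups of 3 libraries. All mice had received an AAV8 vector by tail vein before any mating. AAV8-null carried no insert, and AAV8-p21 carried mouse p21 (Cdkn1a), a cyclin-dependent kinase inhibitor that blocks the cell cycle. The AAV8-null groups were non-pregnant (NP), 8 days post coitum (8 dpc) and 16 dpc mice, and the AAV8-p21 groups were 8 dpc and 16 dpc mice. A TBG promoter, which is active in hepatocytes, drove the insert, and no non-pregnant AAV8-p21 group was analysed here, so the p21 comparisons hold for pregnant livers. The stages ask how the maternal liver changed in mid and late gestation, and the virus asks how it changed when hepatocyte proliferation was impaired.

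Hepatocytes secrete most plasma complement, while C1q and properdin come largely from macrophages. The classical pathway starts when C1q and the proteases C1r and C1s bind antibody, and the lectin pathway starts when mannose-binding lectins, ficolins or collectins bind sugars with the MASP proteases. Both cleave C4 and C2, the alternative pathway amplifies through factor B, and all 3 pathways meet at C3. Cleavage of C5 then assembles C5b, C6, C7, C8 and many copies of C9 into the membrane attack complex, and regulators such as factor I, C4b-binding protein and vitronectin hold the cascade in check.

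Total counts per library were between 12280709 and 17615185. Cdkn1a was at 347 to 1664 CPM (counts scaled to library size) in the AAV8-p21 libraries and at 3.29 to 127 CPM in the AAV8-null libraries, without overlap, and counts cannot separate the vector's p21 from the mouse's own gene. CPM values were scaled with TMM factors, which set most genes to no change between libraries. The scaling matters at 16 dpc, where albumin took 20.5% to 27.8% of the counts, against 7.90% to 12.9% in the other groups. The summed level of 6 hepatocyte markers was 98803 to 116361 CPM in NP AAV8-null livers and 309004 to 437559 CPM at 16 dpc, of which albumin was the main part, and Ttr and Cyp2e1 of the same list were lower at 16 dpc. Without TMM, the median of all genes tested between NP and 16 dpc AAV8-null livers moved by −0.70 on the log2 scale. With TMM it moved by −0.03. The part of albumin in this difference was not tested. CPM levels and fold changes below are relative to the TMM scale unless total counts are named.

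The 37 genes together took up 2.03% ± 0.0986 (SD, n = 3) of NP AAV8-null libraries, 2.88% ± 0.505 of 8 dpc AAV8-null libraries and 2.23% ± 0.0820 of 16 dpc AAV8-null libraries. Under AAV8-p21 they took up 2.75% ± 0.245 of 8 dpc libraries and 2.50% ± 0.132 of 16 dpc libraries. C3 alone held 44.1% to 51.7% of that share as group means. These shares of libraries are of total counts without TMM scaling, albumin included. Per kb of exon, the order of levels in NP AAV8-null livers began with C3 at 1535 ± 50.6 CPM per kb, Vtn at 867 ± 251 and Mbl2 at 437 ± 170. Cfb at 349 ± 56.9, Clu at 316 ± 33.2 and Serping1 at 309 ± 45.0 CPM per kb followed, and these neighbours differed by less than their SD. C3 and Vtn stayed in the first and second place in all 5 groups. The 2 anaphylatoxin receptors were at the low end of the tested genes, with C3ar1 at 0.689 ± 0.0986 and C5ar1 at 0.383 ± 0.182 CPM per kb in NP AAV8-null livers.

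In late pregnancy, 7 of the 35 tested complement genes changed between NP and 16 dpc AAV8-null livers. C3, C4b, Hc, C4bp, Cfi and Vtn rose between 1.83-fold and 2.74-fold, and C9 fell 15.7-fold. Calls are those with an adjusted p under 0.05 in edgeR's quasi-likelihood test, adjusted over all 12172 genes. The 6 genes that rose stand beside 3.71% of all genes tested that were called higher, and the 1 that fell beside 2.82% called lower. The median log2 fold change was 0.24 for the 35 genes and −0.03 for all genes. All 3 libraries of 16 dpc lay above all 3 of NP for 10 of the 35 genes (12.1% of all genes) and below them for 1 gene, C9 (12.5% of all genes). With total counts in place of TMM, 3 of the 35 genes were called higher (C4b, Cfi and Vtn) and 12 lower, where 1.91% of all genes were called higher and 48.6% lower, so the split depends on the scaling for complement genes and for all genes. Cfi, Vtn, C4b and C9 were called in the same direction on both scales, with log2 fold changes on total counts of 0.77, 0.69, 0.65 and −4.63.

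C3, the protein at which all pathways meet, was at 7647, 8166 and 7875 CPM in the NP AAV8-null libraries. It was at 13064, 16903 and 13494 CPM in the 16 dpc AAV8-null libraries. The groups did not overlap, and the difference was 0.88 on the log2 scale (SE 0.21, edgeR adjusted p = 0.0215). On total counts, the difference was 0.19 and was not called (edgeR adjusted p = 0.414). The call was also lost when any of 4 of the 6 libraries was left out.

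C4b, whose product is cleaved by C1s and MASP2, was at 803, 616 and 723 CPM in NP AAV8-null libraries and at 1591, 2488 and 1359 CPM at 16 dpc. It was 2.54-fold higher (log2 1.34, SE 0.25, edgeR adjusted p = 0.00638) and was called in all 6 fits that omitted 1 library. C4b has a near-identical copy in the mouse genome, C4a, which had no row under that name, so its counts are uncertain. C2, the partner of C4 in the C3 convertase, was at 71.7 ± 10.6 CPM in NP AAV8-null livers and at 56.9 ± 7.60 CPM at 16 dpc, and was not called.

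Of the 35 genes, Cfi rose the most among those called. It encodes factor I, the protease that inactivates C3b and C4b. Cfi was at 622, 455 and 557 CPM in NP AAV8-null libraries and at 1548, 1734 and 1201 CPM at 16 dpc. All 16 dpc libraries lay above all NP libraries. The fold was 2.74 (log2 1.46, SE 0.20, edgeR adjusted p = 0.000738), and the call held in all 6 fits that omitted 1 library. C4bp encodes the alpha chain of C4b-binding protein, a cofactor of factor I. It was at 427, 257 and 338 CPM in NP AAV8-null libraries and at 697, 558 and 653 CPM at 16 dpc (log2 0.90, SE 0.23, edgeR adjusted p = 0.0323), and the call held in 1 of the 6 fits that omitted 1 library. On total counts C4bp was not called (log2 0.24, edgeR adjusted p = 0.353).

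Vtn encodes vitronectin, a plasma and matrix protein that keeps the terminal complex out of membranes. It was at 2348, 1443 and 1488 CPM in NP AAV8-null libraries and at 5419, 4475 and 3764 CPM at 16 dpc. It was 2.59-fold higher at 16 dpc (log2 1.37, SE 0.29, edgeR adjusted p = 0.0118), and the call was lost without NP library 2 or 3 (edgeR adjusted p = 0.0638 and 0.0612). The other 5 regulators were not called. Of these, Serping1, the C1 inhibitor, was at 718 ± 105 CPM in NP and 926 ± 100 CPM in 16 dpc livers, and Clu, encoding clusterin, at 1088 ± 114 and 1336 ± 139 CPM. The membrane regulators Cd55, Cd59a and Cr1l had log2 fold changes of 0.24, −0.12 and −0.03. Over all roles, the tested genes that were not called had log2 fold changes between −0.45 (C1s1) and 1.09 (C5ar1).

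**Figure D1:**
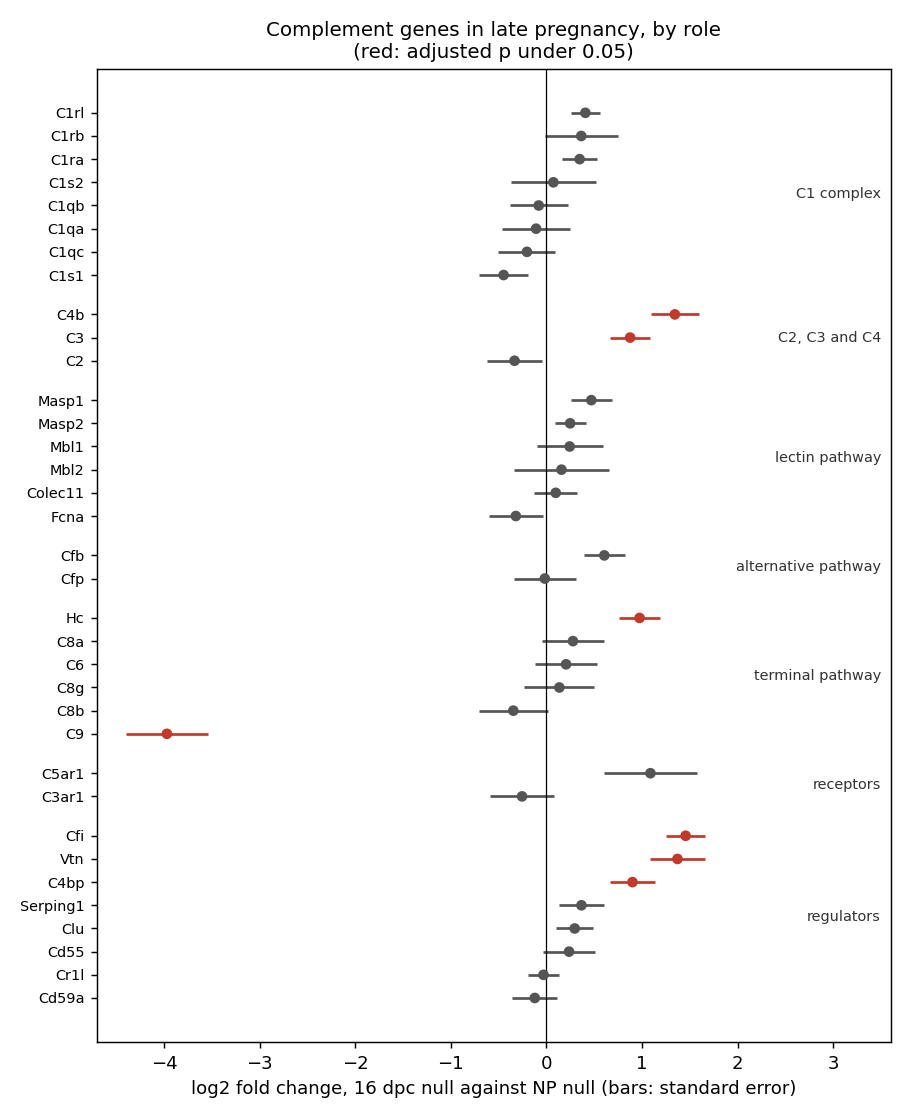
Log2 fold change with its standard error (x axis) of the 35 tested complement genes between 16 dpc and NP AAV8-null livers, grouped by role on the y axis. Red marks the 7 genes with an adjusted p under 0.05: C3, C4b, Hc, Cfi, Vtn and C4bp lie between 0.88 and 1.46, and C9 lies at −3.97.

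The terminal pathway genes moved in different directions. Hc, the mouse gene for C5, rose, C9 fell, and C6, C8a, C8b and C8g were not called between NP and 16 dpc. Hc was at 508, 498 and 540 CPM in NP AAV8-null libraries and at 998, 1280 and 761 CPM at 16 dpc. The difference was 0.97 on the log2 scale (SE 0.21, edgeR adjusted p = 0.0140), and the call was lost without NP library 2 or 16 dpc library 2. On total counts Hc was not called (log2 0.28, edgeR adjusted p = 0.232).

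C9, which forms the ring of the membrane attack pore, was at 215, 133 and 204 CPM in NP AAV8-null libraries. Its 8 dpc values were 371, 498 and 158 CPM, and its 16 dpc values were 15.1, 7.83 and 12.3 CPM. Each 16 dpc AAV8-null library lay far below every library of the other groups at NP and 8 dpc. The difference from NP was −3.97 on the log2 scale (SE 0.43, edgeR adjusted p = 9.95e-05), and that from 8 dpc was −4.87 (SE 0.44, edgeR adjusted p = 2.24e-05). Both calls held in all 6 fits that omitted 1 library and under all 9 other alternatives tried, with log2 values from −4.63 to −3.74 against NP. The counts behind the 16 dpc values were 169, 94 and 138.

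C8a and C8b, which join the complex before C9, were not called between NP and 16 dpc, with log2 fold changes of 0.28 and −0.35. The ratio of C9 to C8b, both per kb of exon, lay between 1.96 and 3.27 in all 9 libraries of NP, 8 dpc AAV8-null and 8 dpc AAV8-p21 livers. It was 0.216, 0.197 and 0.163 in the 16 dpc AAV8-null libraries, and 0.413, 0.668 and 0.551 in the 16 dpc AAV8-p21 libraries. The 3 sets did not overlap. In rank of level per kb, C9 was in place 13 of 37 in NP livers under AAV8-null, in place 10 at 8 dpc and in place 29 at 16 dpc. This ratio was chosen after the values of C9 had been seen and is given without a test.

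**Figure D2:**
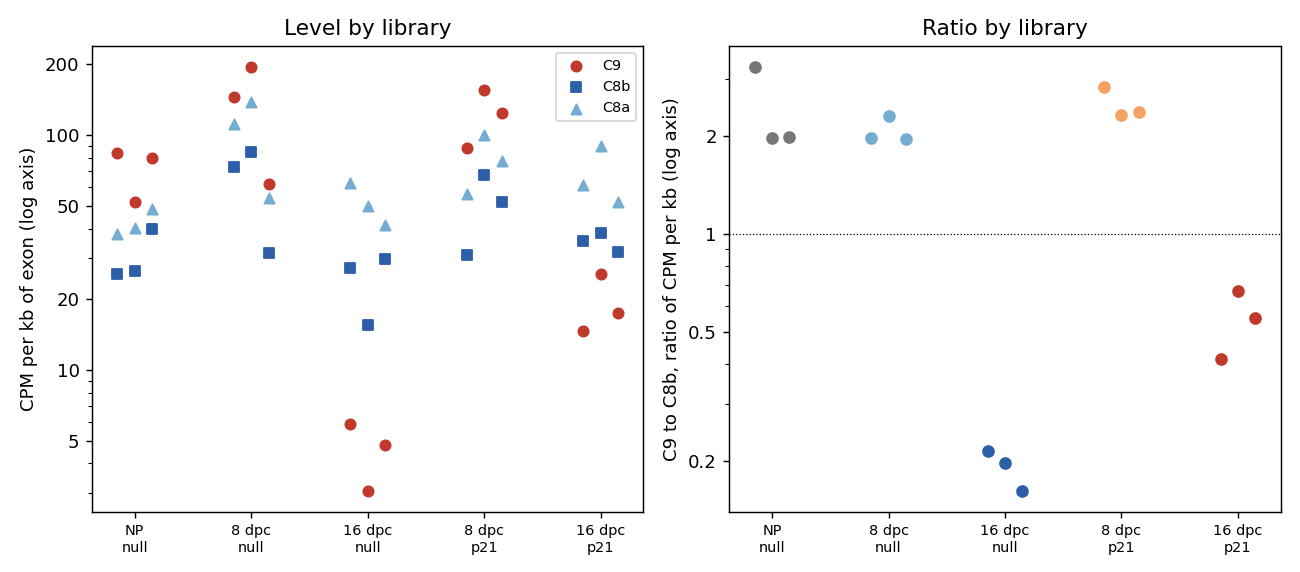
Left, CPM per kb of exon (log axis) of C9, C8b and C8a in each of the 15 libraries by group. Right, the ratio of C9 to C8b per kb (log axis), which was 1.96 or more in the 9 libraries of NP and 8 dpc livers and below 1 in the 6 libraries of 16 dpc livers.

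The promoters of the genes were searched for 4 motifs of liver transcription factors in the 250 bases upstream of the RefSeq start. RefSeq entries on GRCm38.p6 were matched for 29 of the 37 genes, which have 31 promoters there, because C1s1 and C8g have a pair each. C4b and Cfi, which rose in late pregnancy, had no entry and were not searched. The same holds for C1qa, C2, Cfb, Clu, Masp1 and Serping1. The C/EBP letters TTGCNNAA, searched on both strands, were in 5 of these 31 promoters (16.1%) and in 9.56% of all 32851 promoters. The 5 were those of C1rb, C1rl, C1s1, C3 and C9. The letters GTTAAT of HNF1 were in 9 of 31 (29%) and in 6.43% of all promoters. The 9 were those of C1ra, C1s2, C4bp, C7, C8a, C8b, Cfp, Hc and Vtn. The STAT letters TTCNNNGAA were in 5 of 31 (16.1%) against 7.02% of all, and the HNF4 letters CAAAGTCCA in none of the 31 against 0.384% of all. These are matches of letters and not measured binding. C9, Vtn and Hc are shown because they are the terminal component that fell, its regulator that rose and the first terminal component, with the matched letters in capitals (the C/EBP match in C9, and the HNF1 letters read on the other strand in Vtn and Hc). The windows are chr15:6445096-6445345 (plus strand), chr11:78498870-78499119 (plus strand) and chr2:35061413-35061662 (minus strand).
C9: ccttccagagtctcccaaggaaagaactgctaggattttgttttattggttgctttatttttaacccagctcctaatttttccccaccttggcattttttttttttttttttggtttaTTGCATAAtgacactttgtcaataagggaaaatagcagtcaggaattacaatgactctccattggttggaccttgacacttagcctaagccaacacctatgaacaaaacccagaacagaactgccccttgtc
Vtn: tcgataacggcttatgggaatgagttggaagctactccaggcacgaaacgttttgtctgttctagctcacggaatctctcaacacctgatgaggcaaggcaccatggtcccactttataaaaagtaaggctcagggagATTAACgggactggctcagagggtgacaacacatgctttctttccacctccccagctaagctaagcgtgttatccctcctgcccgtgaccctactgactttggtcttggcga
Hc: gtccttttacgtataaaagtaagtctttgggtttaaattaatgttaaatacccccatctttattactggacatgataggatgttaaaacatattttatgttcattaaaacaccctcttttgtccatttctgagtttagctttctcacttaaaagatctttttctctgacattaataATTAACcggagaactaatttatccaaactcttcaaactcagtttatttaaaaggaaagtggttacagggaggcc

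None of the 8 genes of the C1 complex and none of the 6 lectin pathway genes was called between NP and 16 dpc AAV8-null livers by edgeR, with 1 gene of each group at an unadjusted p under 0.05 (C1rl, a C1r-like protease, and Masp1, a protease of the lectin complexes). Of all genes, 3.71% were called higher and 2.82% lower, so a count of 0 of 14 is near that background. DESeq2's Wald test called C1rl higher and limma voom called none of these 14. Mbl2, the mannose-binding lectin with the highest level, varied within groups as much as between them: it was at 689, 373 and 365 CPM in NP AAV8-null libraries and at 850, 477 and 264 CPM at 16 dpc. Masp2, the protease that cleaves C4 in this pathway, was at 176, 168 and 188 CPM in NP AAV8-null libraries and at 221, 219 and 192 CPM at 16 dpc, without overlap but not called (log2 0.25, edgeR adjusted p = 0.409). Cfb, the factor B of the alternative pathway, was at 1160, 843 and 956 CPM in NP AAV8-null libraries and at 1607, 1701 and 1195 CPM at 16 dpc (log2 0.61, SE 0.21, edgeR adjusted p = 0.113). DESeq2's Wald test and limma voom called Cfb higher.

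C1qa, C1qb and C1qc, the 3 chains of C1q, kept to a common level in all groups. Their log2 fold changes between NP and 16 dpc were −0.11, −0.08 and −0.20. Their summed level was 82.6 to 185 CPM over the 15 libraries, and the summed level of 10 Kupffer cell and macrophage markers, none of them at 0, was 238 to 643 CPM. The ratio of the 2 sums stayed between 0.263 and 0.397. Over the 15 libraries, each chain followed the mean log2 level of those markers (r = 0.79 for C1qa, 0.84 for C1qb and 0.80 for C1qc), and Cfp, encoding properdin, followed C1qb (r = 0.95). Genes of other roles did so too, with r to C1qb of 0.83 for Mbl2 and 0.78 for C2, while the receptors C3ar1 and C5ar1 had r of −0.03 and 0.19 to the Kupffer cell markers. These r are descriptions across libraries that share groups and one TMM scale. In bulk liver, fewer cells of a type and less RNA per cell cannot be told apart. C5ar1, the C5a receptor of myeloid cells, was at 1.52, 0.731 and 0.699 CPM in NP AAV8-null libraries and at 1.07, 1.67 and 3.56 CPM at 16 dpc, which overlapped. The highest C5ar1 library, 16 dpc AAV8-null 3, was also the highest for 6 neutrophil markers, whose summed level was 34.4 CPM there, 6.25 to 34.4 CPM over that group and 0.792 to 2.01 CPM in NP livers. In 8 dpc AAV8-null livers the neutrophil markers summed to 5.24 to 16.9 CPM, while C5ar1 had a mean of 0.865 CPM, against 0.985 CPM in NP livers. The part of neutrophils in the C5ar1 level was not tested.

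At mid pregnancy, no complement gene was called between NP and 8 dpc AAV8-null livers by edgeR (0 of 35, where 0% of all genes were called). Of the 35 genes, 11 had an unadjusted p under 0.05, as had 6.6% of all genes. DESeq2's Wald test called 2 (C3 and C8a, both higher, beside 0.574% of all genes), and limma voom with sample weights called 15 (beside 15.2% of all genes). For 6 genes the 8 dpc libraries all lay above the NP libraries (4.69% of all genes), namely C1s2, C3, C4b, Masp1, Hc and C8a, and for 2 they lay below (5.52% of all genes), namely Colec11 and Cd59a. C8a was at 138, 147 and 176 CPM in NP AAV8-null libraries and at 406, 502 and 196 CPM at 8 dpc (log2 1.26, SE 0.33, edgeR adjusted p = 0.305). All 6 tested genes of the terminal pathway had a positive log2 fold change at 8 dpc, with a median of 0.82, and 5 of them had an unadjusted p under 0.05. In the 8 dpc group, library 2 was the highest and library 3 the lowest for all of Hc, C6, C8a, C8b, C8g and C9. Library 2 also stood apart in acute-phase genes, with Saa1 at 869 CPM against 42.1 and 19.6 CPM in the other 8 dpc libraries and Lcn2 at 297 CPM against 49.9 and 51.1 CPM. Over the counts of all genes, library 3 was the one apart. The chi-square per degree of freedom was 29.2 between libraries 1 and 2. It was 111 between libraries 1 and 3, and 146 between libraries 2 and 3. Of the 20 acute-phase genes, all had a positive log2 fold change at 8 dpc, with a median of 0.91. Without library 2, 5 of the 6 terminal pathway genes had a positive log2 fold change, the median was 0.51, and 1 gene had an unadjusted p under 0.05 (3.54% of all genes). Without library 3, the median was 1.17, and C6 and C8a were called higher, 2 of 35 genes beside 0.744% of all genes called in that fit.

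Colec11, a collectin, was at 33.9, 25.9 and 26.9 CPM in NP AAV8-null libraries and at 24.9, 15.9 and 14.3 CPM at 8 dpc (log2 −0.65, SE 0.22, edgeR adjusted p = 0.471). Stellate cell markers were lower in the same libraries, with the summed level of all 6 at 311 to 362 CPM in NP livers and at 167 to 256 CPM at 8 dpc. Their part in the Colec11 level was not tested.

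From 8 to 16 dpc in AAV8-null livers, Cfi and Vtn rose and C8b and C9 fell, 4 of 35 genes. Of all genes, 3.16% were called higher and 3.71% lower. Cfi was at 707, 732 and 573 CPM at 8 dpc, and the difference to 16 dpc was 1.16 on the log2 scale (SE 0.20, edgeR adjusted p = 0.00439). Vtn was at 2145, 2544 and 1472 CPM at 8 dpc (log2 1.15, SE 0.29, edgeR adjusted p = 0.0299). C8b, which anchors C8 in the C5b-8 complex, was at 186, 215 and 79.9 CPM at 8 dpc. Its 16 dpc values were 69.4, 39.6 and 75.2 CPM. It was 2.61-fold lower (log2 −1.39, SE 0.37, edgeR adjusted p = 0.0364). The calls of Vtn and C8b each held in 1 of 6 fits that omitted 1 library, and those of C9 and Cfi in all 6. On total counts the split was 1 higher and 21 lower, where 1.56% of all genes were called higher and 51.9% lower. The log2 values were then 0.43 for Cfi, −2.06 for C8b and −5.56 for C9, which were called, and 0.43 for Vtn, which was not (edgeR adjusted p = 0.147).

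The same stage comparison in AAV8-p21 livers used 6 other libraries. Cfi and Vtn rose and C9 fell, 3 of 35 genes, where 2.09% of all genes were called higher and 1.23% lower. Cfi was at 630, 741 and 794 CPM at 8 dpc, and its 16 dpc values were 1497, 1610 and 1336 CPM (log2 1.04, SE 0.20, edgeR adjusted p = 0.0116). Vtn was at 1515, 1967 and 2597 CPM and at 5774, 5240 and 3917 CPM (log2 1.30, SE 0.29, edgeR adjusted p = 0.0249). C9 was at 225, 399 and 317 CPM at 8 dpc, and its 16 dpc values of 37.6, 65.3 and 44.9 CPM were 6.37-fold lower (log2 −2.67, SE 0.40, edgeR adjusted p = 0.00195). On total counts the split was 2 higher and 10 lower, where 1.47% of all genes were called higher and 34% lower, with Cfi, Vtn and C9 called in the same direction at log2 values of 0.47, 0.74 and −3.24. The call of C9 held in all 6 fits that omitted 1 library, that of Cfi in 4 and that of Vtn in 2.

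The changes from 8 to 16 dpc had the same sign under both viruses for 30 of the 35 complement genes (85.7%) and for 75.6% of all genes tested. The r across the 35 genes was 0.85, and 0.75 across all genes. Genes are not independent replicates, and the value for the 35 genes rests in part on C9, so it is given as a description. The 35 genes also include C1rb and C1s2, which were nearly absent under AAV8-p21. Their log2 changes there were −0.54 (SE 0.86) and 0.36 (SE 1.48). The sign of neither change could be determined, so these 2 genes cannot show whether the stages changed alike under both viruses. In AAV8-p21 livers, C8b was at 78.9, 171 and 133 CPM on the earlier day and at 90.5, 97.5 and 81.0 CPM on the later day, and these groups overlapped.

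**Figure D3:**
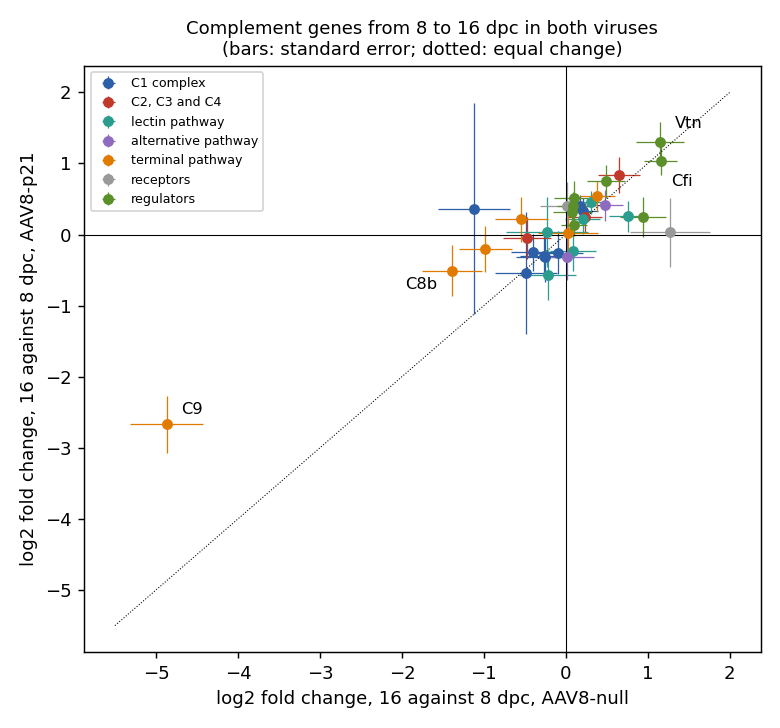
Log2 fold change from 8 to 16 dpc of the 35 tested complement genes in AAV8-null livers (x axis) and in AAV8-p21 livers (y axis), coloured by role, with standard errors. Cfi and Vtn lie in the upper right near the line of equal change, and C9 lies at −4.87 on the x axis and −2.67 on the y axis, above that line.

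At 16 dpc, C9 was above all AAV8-null libraries in all 3 AAV8-p21 libraries. The values were 37.6 to 65.3 CPM against 7.83 to 15.1 CPM, a 4.20-fold difference (log2 2.07, SE 0.40) that narrowly missed the threshold (edgeR adjusted p = 0.0628). It was called by DESeq2's Wald test (adjusted p = 0.000110), by limma voom (adjusted p = 0.0235), on total counts (edgeR adjusted p = 0.0473) and without the filter (edgeR adjusted p = 0.0393). It was called in none of the 6 fits that omitted 1 library, with log2 values from 1.82 to 2.29. At 8 dpc the log2 difference of C9 between the viruses was −0.12 (SE 0.37). The interaction of virus and stage was 2.20 for C9 (SE 0.54, unadjusted p = 0.00112, edgeR adjusted p of 1), so a difference between the stages in the effect of p21 was not shown. These comparisons share the 16 dpc AAV8-null libraries in which C9 was lowest. No complement gene had an interaction call by edgeR (0% of all genes), C9 was the 1 gene of 35 with an unadjusted p under 0.05 (3.09% of all genes), and DESeq2 and limma voom called none of the 35 either.

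**Figure D4:**
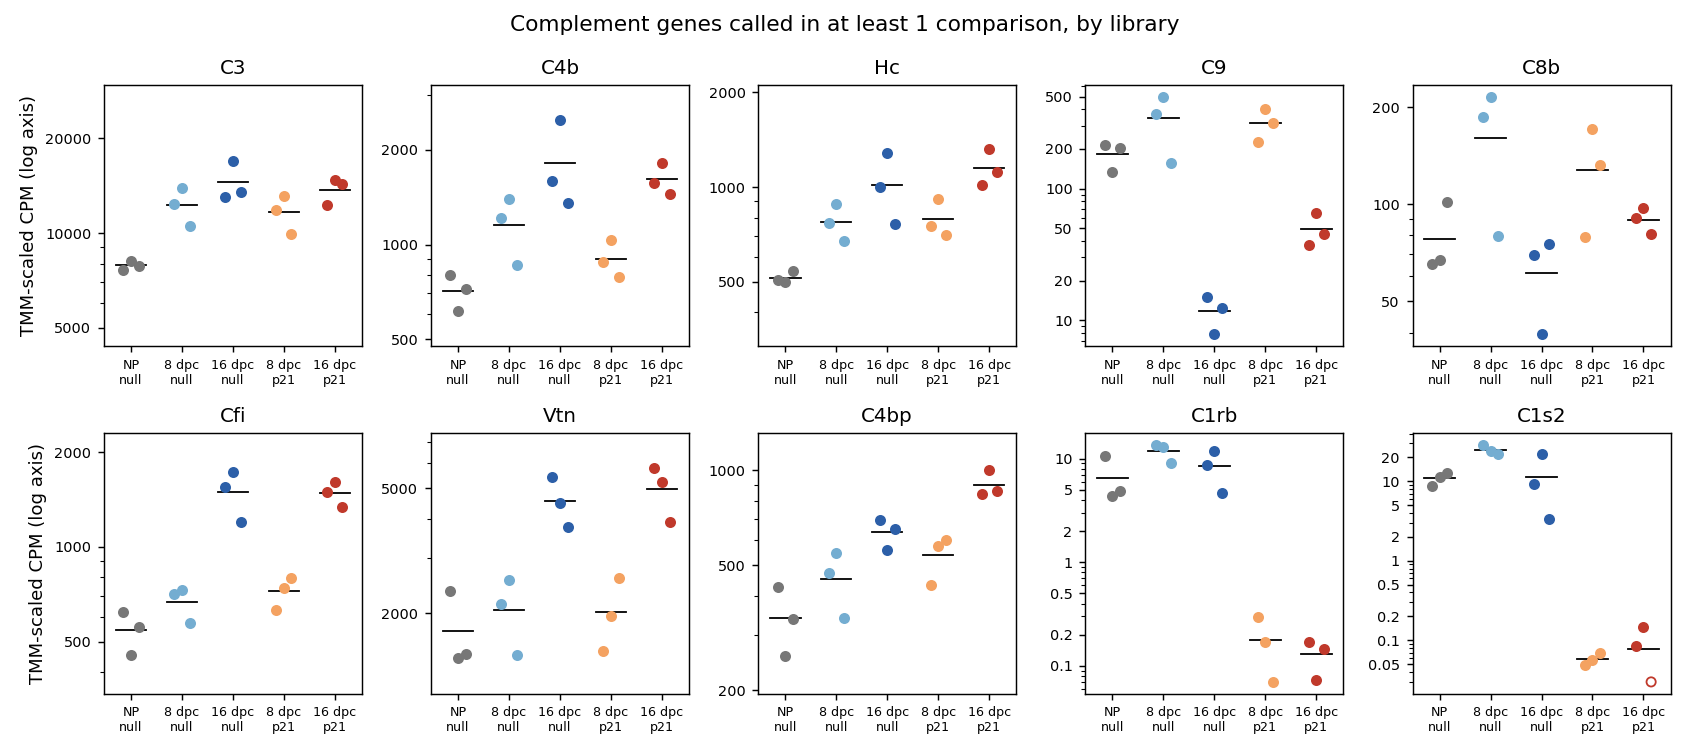
TMM-scaled CPM (log axes) of the 10 complement genes called in at least 1 comparison, with 1 point per library and a line at the mean of 3 libraries per group. C9 was at 7.83 to 15.1 CPM in 16 dpc AAV8-null livers and at 37.6 to 65.3 CPM in 16 dpc AAV8-p21 livers, and C1rb and C1s2 were below 0.3 CPM in all 6 AAV8-p21 libraries. An open circle marks a library with 0 counts, drawn at the bottom of the axis.

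C1rb and C1s2 were the complement genes that edgeR called between AAV8-p21 and AAV8-null livers on the TMM scale with the filter on low counts, and both were nearly absent from AAV8-p21 libraries. They encode second copies of the C1 proteases, beside C1ra and C1s1. At 16 dpc the call covered 2 of 35 genes (0.0739% of all genes), at 8 dpc 2 of 35 (0.0246% of all genes), and over both stages 2 of 35 lower and 0 higher (0.0739% of all genes lower and 0.0575% higher). C1rb had 6, 3 and 1 counts in the 8 dpc AAV8-p21 libraries and 2, 1 and 2 counts in the 16 dpc AAV8-p21 libraries. In AAV8-null livers it had 152, 71 and 69 counts in NP, 235, 216 and 173 at 8 dpc, and 98, 143 and 52 at 16 dpc. From summed counts, C1rb was 61.1-fold lower at 8 dpc (95% exact interval 33.0 to 128) and 66.7-fold lower at 16 dpc (28.3 to 207). The edgeR adjusted p was 0.000114 at 8 dpc and 0.000781 at 16 dpc.

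C1s2 had 1 count in each 8 dpc AAV8-p21 library and 1, 2 and 0 counts in the 16 dpc AAV8-p21 libraries. It had 126, 188 and 181 counts in NP, 499, 399 and 430 at 8 dpc, and 103, 263 and 38 at 16 dpc in AAV8-null livers. From summed counts it was 433-fold lower at 8 dpc (95% exact interval 148 to 2103) and 153-fold lower at 16 dpc (52.1 to 747). The edgeR adjusted p was 0.000114 at 8 dpc and 0.00112 at 16 dpc. These intervals cover counting error only. Among all 21702 genes, C1s2 was the 1 gene with 3 or fewer counts in all 6 AAV8-p21 libraries and more in all 9 AAV8-null libraries, and 0 genes had the opposite pattern.

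The copies C1ra and C1s1 carried most of the reads of each pair and were not called between the viruses. C1ra was at 114 to 145 CPM in 8 dpc AAV8-null and at 124 to 149 CPM in 8 dpc AAV8-p21 libraries. Over both stages the log2 difference between the viruses was 0.10 for C1ra and 0.35 for C1s1 (edgeR adjusted p = 0.782 and 0.456). C1rb was 8.10% of the summed C1ra and C1rb level in 8 dpc AAV8-null livers and 0.130% in 8 dpc AAV8-p21 livers. C1s2 was 8.07% and 0.0171% of the summed C1s1 and C1s2 level in the same groups. C1ra plus C1rb was at 123 to 158 CPM in 8 dpc AAV8-null and at 124 to 150 CPM in 8 dpc AAV8-p21 libraries. C1s1 plus C1s2 had a mean of 310 CPM in 8 dpc AAV8-null and 344 CPM in 8 dpc AAV8-p21 livers, and of 227 and 289 CPM at 16 dpc, and its libraries overlapped between the viruses at both stages.

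The pairs are close copies, which limits how reads can be told apart. The coding sequences of C1ra and C1rb are 98.0% identical over 2118 aligned bases, and 39.4% of the 86-base windows of the C1ra transcript, and 46.3% of those of C1rb, also occur in another gene. C1s1 and C1s2 are 95.7% identical over 2082 bases, and 11.5% and 12.7% of their windows are shared. Reads in shared windows have no unique position, and the deposited counts used uniquely mapped reads of 86 bases. The coding windows with the most differences, 13 in the first pair and 20 in the second, show where a read can be assigned (GENCODE M21, GRCm38), with the differing bases in capitals. They lie at chr6:124522651-124522736 (C1ra, plus strand), chr6:124580697-124580782 (C1rb, plus strand), chr6:124531460-124531545 (C1s1, minus strand) and chr6:124625682-124625767 (C1s2, minus strand).
C1ra: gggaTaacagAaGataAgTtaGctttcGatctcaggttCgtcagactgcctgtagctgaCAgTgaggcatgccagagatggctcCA
C1rb: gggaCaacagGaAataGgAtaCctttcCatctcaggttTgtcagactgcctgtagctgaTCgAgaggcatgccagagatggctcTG
C1s1: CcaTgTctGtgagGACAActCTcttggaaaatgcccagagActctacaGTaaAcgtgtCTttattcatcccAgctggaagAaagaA
C1s2: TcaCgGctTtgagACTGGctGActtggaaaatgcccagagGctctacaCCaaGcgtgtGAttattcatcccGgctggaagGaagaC

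C1rb and C1s2 are neighbours on chromosome 6, with C1rb at 124570294 to 124581171 on the plus strand and C1s2 at 124624625 to 124636085 on the minus strand. Of 37 genes of the table within 500 kb of the C1rl, C1ra, C1s1, C1rb and C1s2 span, 30 were tested. Of these, 3 were called between the viruses over both stages, all lower: C1rb, C1s2 and Pianp. Of all genes, 0.0739% were called lower and 0.0575% higher. C1rb and C1s2 are among the genes that set the window. Pianp, which encodes a membrane ligand of the PILR-alpha receptor, lies 426 kb from C1rb. It had 4 counts in each 8 dpc AAV8-p21 library and 1 count in each 16 dpc AAV8-p21 library, against 47, 61 and 28 and then 8, 28 and 14 counts in AAV8-null livers. From summed counts it was 11.1-fold lower at 8 dpc (95% exact interval 6.15 to 22.0) and 19.0-fold lower at 16 dpc (6.13 to 95.1). The 20 genes between C1s2 and Pianp, of which 16 were tested, were not called. The log2 differences of the 27 other tested neighbours lay between −1.79 and 0.96, with a lowest edgeR adjusted p of 0.209. The mice of the 2 viruses differ in these genes at both stages, and whether the difference lies in the virus or in the mice that received it cannot be told apart here.

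**Figure D5:**
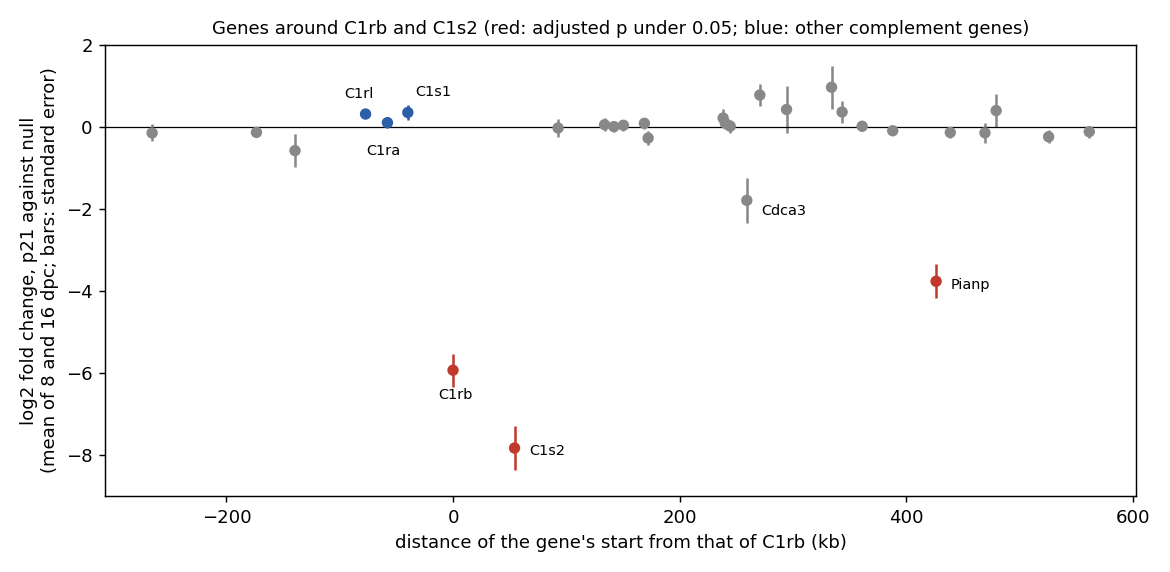
Log2 difference between AAV8-p21 and AAV8-null livers, mean of 8 and 16 dpc with its standard error (y axis), for the 30 tested genes around C1rb, by the distance of their start from that of C1rb in kb (x axis). C1rb, C1s2 and Pianp lie far below 0 and the other 27 between −1.79 and 0.96. The fitted values of C1rb and C1s2 rest on few counts in AAV8-p21 libraries and depend on the prior count of the fit.

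Apart from C1rb and C1s2, no complement gene was called between the viruses by edgeR on the TMM scale with the filter, and C9 at 16 dpc was called in the alternatives given above. The median log2 difference of the 35 genes was 0.16 at 16 dpc and 0.10 at 8 dpc, and that of all genes was within 0.01 of 0 at both stages. At 16 dpc the AAV8-p21 libraries all lay above the AAV8-null libraries for 5 genes (6.65% of all genes), namely C1rl, C8b, C9, C4bp and Clu, and below for 2 (7.02% of all genes). At 8 dpc they lay above for 2 genes, Fcna and Colec11 (5.52% of all genes), and below for 2 (4.49% of all genes). The 6 stellate cell markers summed to 282 to 356 CPM in 8 dpc AAV8-p21 and to 167 to 256 CPM in 8 dpc AAV8-null livers, and all 6 had a positive log2 difference. The 10 Kupffer cell and macrophage markers summed to 425 to 643 CPM and to 274 to 556 CPM, and 9 had a positive difference. Neutrophil markers went the other way, with the 6 summing to 2.23 to 3.75 CPM in 8 dpc AAV8-p21 and 5.24 to 16.9 CPM in 8 dpc AAV8-null livers, and to 2.30 to 4.58 CPM and 6.25 to 34.4 CPM at 16 dpc. The part of these cells in the Fcna and Colec11 levels was not tested. C4bp was at 841, 1001 and 857 CPM in 16 dpc AAV8-p21 and at 697, 558 and 653 CPM in 16 dpc AAV8-null libraries (log2 0.50, SE 0.23, edgeR adjusted p = 0.508). C3 did not differ by a call either, at 12263, 14700 and 14276 CPM in 16 dpc AAV8-p21 livers.

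Of a list of 20 further complement receptors, regulators and cofactors, 15 were tested and 2 were called between NP and 16 dpc AAV8-null livers, both higher, beside 3.71% of all genes called higher and 2.82% lower. On total counts 1 was called higher and 3 lower, beside 1.91% of all genes called higher and 48.6% lower, and Susd4 was not called. The genes called on the TMM scale were Susd4, encoding a regulator of the C3 convertase (log2 1.09, SE 0.25, edgeR adjusted p = 0.0188), and Itgam, a chain of complement receptor 3 on myeloid cells (log2 2.29, SE 0.54, edgeR adjusted p = 0.0215). Itgam had its highest level in the library with the highest neutrophil markers, 6.32 CPM in 16 dpc AAV8-null 3. The other libraries of that group did not keep this order. Library 2 had Itgam at 5.08 CPM and a neutrophil marker sum of 6.25 CPM, and library 1 had 1.34 and 8.82 CPM. The part of neutrophils was not tested. Of 20 acute-phase proteins of hepatocytes, 10 were called higher and none lower, with a median log2 fold change of 1.27 (−0.03 for all genes). On total counts 10 were called higher and 1 lower, beside 1.91% and 48.6% of all genes, with a median of 0.60 (−0.70 for all genes). The largest of these rises were those of Itih4 (log2 3.56, SE 0.29, edgeR adjusted p = 6.64e-06) and Cp, encoding ceruloplasmin (log2 2.94, SE 0.23, edgeR adjusted p = 5.11e-06), larger than those of Cfi and Vtn.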

How the data were processed

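RNA-seq was performed on total RNA of 15 livers (5 groups of 3). The authors used cutadapt 1.14 for trimming of single-end reads of 86 bases, HISAT2 2.1.0 for alignment to mm10 and HTSeq 0.12.4 for counting, with reads kept that mapped uniquely to protein-coding genes. The deposited table holds these raw counts, not normalized. Whether strand was used in counting is not given in the sources used here. The laser capture microdissection samples of the same study were not analysed here.

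Counts were tested with the quasi-likelihood test of edgeR 4.0.16 (R 4.3.3) in one model of all 15 libraries (TMM normalization, filterByExpr with a minimum count of 10, 12172 genes kept, 10 residual degrees of freedom), with Benjamini-Hochberg adjustment over all genes tested and a threshold of 0.05. CPM values use TMM-scaled library sizes. DESeq2 1.42.0, limma 3.58.1 voom, other scalings and filters, fits to fewer groups and left-out libraries were alternatives. Scripts were tested on simulated data. Libraries of one group differed by more than sampling noise. SDs measure the spread between the libraries of a group. The p-values and SEs of edgeR come from a fit that estimates the spread over all 15 libraries. Total counts were 12280709 to 17615185 per library, and intervals on summed counts cover counting error only.

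The complement genes and the other lists were chosen with earlier results of these data known. Every complement gene is accounted for, and values are given for those called in a comparison and those with the highest counts in each role. Exon lengths and positions come from GENCODE M21 (GRCm38), where all 37 genes were found, and promoters from RefSeq. Exact intervals on ratios of summed counts are Clopper-Pearson intervals at 95%. Libraries of 16 dpc AAV8-p21 carry no replicate number here, because the numbers of table and labels differ. Figures were drawn with matplotlib 3.10.9.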

Additional observations from a re-analysis of the deposited data

How the results depend on the processing

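C9 in the 3 stage comparisons, C4b and Cfi in late pregnancy, Cfi from 8 to 16 dpc in AAV8-null livers, and C1rb and C1s2 at 8 dpc and over both stages kept their direction and call in every alternative fitted to them, left-out libraries included. The log2 fold changes of the genes called in a comparison, and of C9 between the viruses at 16 dpc, over both stages and in the interaction, kept their sign in all alternatives fitted to them. The median of the complement genes did not: in late pregnancy it was −0.45 on total counts (0.24 with TMM), and at 8 dpc between the viruses it was −0.01 by limma voom (0.10 by edgeR). From 8 to 16 dpc in AAV8-null livers it was −0.63 on total counts and −0.04 by limma voom (0.09 by edgeR with TMM). In AAV8-p21 livers this stage median was −0.36 on total counts (0.22 with TMM). On total counts, 15 complement genes were called in late pregnancy, 22 from 8 to 16 dpc under AAV8-null and 12 under AAV8-p21, where TMM gave 7, 4 and 3. All genes moved too, with 50.5%, 53.5% and 35.5% called on total counts. Fits to the groups compared alone called 4 genes in late pregnancy, 2 in the AAV8-null stage comparison and 1 at 16 dpc between the viruses (C1rb; C1s2 had an adjusted p of 0.0954), beside 3.49%, 2.93% and 0.0439% of all genes. A fold of 2 or more left 4 genes in late pregnancy (4.91% of all genes). DESeq2's Wald test called 2 genes at mid pregnancy and 7 in each stage comparison (0.574%, 10.2% and 6.16% of all genes), and limma voom called 15, 7 and 12, where it called 15.2%, 14% and 14.9% of all genes. A filter of 10 counts in every library removed C1rb and C1s2 and left 0 calls of complement genes between the viruses at 16 dpc, at 8 dpc and over both stages, where 0.0289%, 0% and 0.0482% of all genes were called.

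With 1 library left out, 3 to 6 genes were called in late pregnancy (3 without NP library 2, and 4 without NP library 3 or 16 dpc library 2), 0 to 2 at mid pregnancy (2 without 8 dpc library 3), 2 to 6 in the AAV8-null stage comparison (2 without 8 dpc library 2 or 16 dpc library 1) and 1 to 3 in the AAV8-p21 one (1 without 8 dpc library 1 or 16 dpc library b). Of all genes, these fits called 3.01% to 5.91%, 0% to 0.744%, 2.08% to 10.3% and 1.29% to 3.74%. Such a fit assumes that the remaining pair varies like the other groups. Same-numbered libraries are different mice, and the labels do not say that they share a litter, batch or day. Of 18 correlations of their deviations from group means, 7 were over 0.1 (range −0.529 to 0.451). Libraries with different numbers were not compared in this way, so these values cannot decide whether same-numbered mice share a batch. With the replicate block on the 12 libraries that have a number, 2 genes were called in the AAV8-null stage comparison (3 in the same libraries without the block) and 6 in late pregnancy (7 without). Of all genes, 5.43% (6.25% without) and 5.44% (6.12% without) were called. No paired analysis was possible for comparisons with 16 dpc AAV8-p21 because its libraries carry no matched number.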

Other observations

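Markers of several other cell types were at low levels in these livers. The summed level of 5 B and T cell markers was at most 3.49 CPM, that of 4 bile duct cell markers at most 4.29 CPM and that of 3 mesothelial cell markers at most 3.12 CPM in any library. Adipocyte markers varied from 0.247 to 217 CPM in sum, with 2 to 4 of 5 markers at 0 counts in each group. Nearly all of the sum was Cidec, which was at 217 CPM in the highest library, while Adipoq was at most 0.167 CPM and Retn and Lep had 0 counts in all libraries. Cfd, which adipocytes express strongly, had 1 count in 1 library and 0 in the others. The 6 sinusoidal endothelial cell markers summed to 143 to 270 CPM in NP AAV8-null livers and to 104 to 150 CPM at 8 dpc. Lbp, an acute-phase lipopolysaccharide-binding protein, was at 104 to 129 CPM in AAV8-p21 and at 168 to 179 CPM in AAV8-null livers at 8 dpc, and at 147 to 179 CPM and 236 to 271 CPM at 16 dpc. It was lower in AAV8-p21 livers over both stages (log2 −0.63, SE 0.11, edgeR adjusted p = 0.0429), 1 of 20 acute-phase genes so called beside 0.0739% of all genes called lower. Of the 20, 4 had a positive log2 difference over both stages, and the median was −0.33.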
